A study of Mus musculus with 12 samples.

Results

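The genes described are the vascular endothelial growth factors Vegfa and Vegfc, the VEGF receptors Flt1 and Kdr, the endothelial adhesion molecule Pecam1 and the angiopoietins Angpt1 and Angpt2. They were chosen by symbol, and 6 of these 7 were found among the 750 genes of the analysed table; Flt1 was not analysed here. Of these 6, 4 (Vegfa, Vegfc, Pecam1 and Angpt2) had a mean of at least 20 counts over the 12 samples, and Kdr and Angpt1 did not. All were measured by NanoString, which counts single labelled probes bound to RNA without amplification, in cells from the peritoneal ascites of mice bearing ovarian tumour cells. Each mouse received 5000000 tumour cells into the peritoneum, ascites was recovered on day 21, and RNA came from 2000000 unsorted ascites cells. There were 4 groups of 3 samples. The FAKWT group carried tumour cells titled KTFAKWT and had no listed treatment, and the FAKKD group carried cells titled KTFAKKD, an abbreviation that the labels do not expand. The inhibitor group carried KTFAKWT cells and received VS4716, a FAK inhibitor, by gavage at 100 mg/kg, 2 times per day. The vehicle group received the carrier alone; its titles read KTFAKWT although its genotype field reads KTFAKKD, and the titles were followed. The series' design text names the cells KMF. The labels used here do not give the strain, age or sex of the mice, or whether each cell line was 1 clone. The 3 samples of a group are labelled as separate samples, and nothing states that each came from its own mouse, so the spread behind each p-value may in part be technical.

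VEGF-A, made by tumour cells, macrophages and many other cells, acts mainly through KDR (VEGFR2) on blood vessel endothelium, with neuropilin 1 as a co-receptor, and drives vessel growth and leakiness; it is also known for its part in the formation of ascites. VEGF-C acts mainly through VEGFR3 on lymphatic endothelium. ANGPT1 activates the TEK (TIE2) receptor and steadies vessels, whereas ANGPT2 counters it in many settings, and PECAM1 sits at endothelial junctions and also on platelets, monocytes, macrophages and lymphocytes.

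The values in the table are log2 values normalized by the authors. Within each sample, 2 raised to a value was a whole number times 1 factor for 100% of genes (tolerance 0.01), so the counts behind the values were recovered. Recovered totals ran from 588778 to 760152 per sample. The factors differed between groups: 0.659 to 0.825 in FAKWT samples, 0.719 to 0.896 in the vehicle group, 1.13 to 1.25 in the inhibitor group and 1.29 to 1.66 in FAKKD samples. On the deposited scale the median gene was higher by 0.95 (log2) in FAKKD than in FAKWT and by 0.54 in inhibitor than in vehicle samples. For this reason each result is given on the deposited scale and also relative to the panel, where each sample was shifted to a common median gene and these medians are -0.10 and -0.20. Tests are from limma, fitted to all 750 genes, with Benjamini-Hochberg adjusted p-values and a threshold of 0.05, and each log2 fold change has its standard error.

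Markers of vessel endothelium gave unequal counts in these cells. Of 10 endothelial markers listed, 9 were measured, and 4 of them (Kdr, Cdh5, Tie1 and Vwf) had mean counts under 20, at 13.2, 16.1, 8.67 and 16.5. Cd34, Pecam1 and Eng had means of 40.5, 112.5 and 123, and none of the 9 was at 0 in any sample. The lowest count over all 750 genes was 1, so the lack of a 0 is no sign of detection. Cdh5 encodes the junctional protein VE-cadherin, Tie1 the orphan partner of TEK, and Vwf the von Willebrand factor of endothelium and platelets. The 9 markers together took 0.663% to 0.743% of counts in FAKWT samples, 0.519% to 0.577% in the vehicle group, 0.403% to 0.421% in the inhibitor group and 0.468% to 0.572% in FAKKD samples. Most of these counts were Tek, with a mean of 2003 and a range of 753 to 3440, and Icam2, with a mean of 1400 (747 to 2492). Counts of different probes are not compared as levels, and in a bulk sample fewer cells of a type and less RNA per cell cannot be told apart. In the same libraries 18 of 19 macrophage and monocyte markers were measured, and they took 11.4% to 13.7% of counts in FAKWT samples, 13.6% to 15.9% in the vehicle group, 16.6% to 17.7% in the inhibitor group and 22.6% to 23.8% in FAKKD samples. Lyz2 alone made up most of this share, with a mean of 78581 counts and a range of 44728 to 123439. The 7 measured of 12 epithelial and tumour markers took 1.97% to 2.35%, 1.84% to 2.18%, 1.34% to 1.39% and 0.820% to 1.04% of counts in these groups. Msln and Itga6, with means of 4625 and 4230, made up most of this share. No gene of these lists was at 0 in any sample, as was the case for all 750 genes.

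The promoter windows of both ligands are shown because Vegfa and Vegfc were both lower in FAKKD than in FAKWT samples while only Vegfc fell under the inhibitor on both scales. Each runs 5′ to 3′ from 250 bases before to 50 bases after the RefSeq start (assembly GRCm38.p6), with GC boxes in capitals (GGGCGG or its reverse complement CCGCCC). The Vegfc window lies at chr8:54077282-54077581 on the plus strand, before a gene spanning 54077532 to 54186454. The Vegfa window lies at chr17:46032328-46032627 on the minus strand, and the gene spans 46016993 to 46032377.
Vegfc: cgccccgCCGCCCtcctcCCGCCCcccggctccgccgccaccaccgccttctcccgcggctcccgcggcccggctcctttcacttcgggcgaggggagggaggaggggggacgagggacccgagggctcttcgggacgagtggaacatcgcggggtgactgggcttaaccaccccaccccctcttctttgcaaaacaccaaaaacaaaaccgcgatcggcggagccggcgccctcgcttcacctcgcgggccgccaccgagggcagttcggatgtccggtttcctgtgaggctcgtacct
Vegfa: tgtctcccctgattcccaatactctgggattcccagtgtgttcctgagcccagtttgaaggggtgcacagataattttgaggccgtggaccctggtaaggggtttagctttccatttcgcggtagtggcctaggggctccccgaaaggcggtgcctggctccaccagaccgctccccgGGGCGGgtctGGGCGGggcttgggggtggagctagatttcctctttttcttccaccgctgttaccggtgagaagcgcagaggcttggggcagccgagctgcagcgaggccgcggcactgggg
GC content was 70.3% in the Vegfc and 62.0% in the Vegfa window, against a median of 52.7% over 32851 promoter windows. Both windows held 2 GC boxes, a motif present in 35.7% of all windows. Neither window held the hypoxia response core ACGTG (19.6% of windows), the AP-1 site TGACTCA (5.20%) or the TATA box TATAAA (13.6%) on either strand. The table lists a further Vegfa start, whose window at chr17:46025114-46025413 held 1 GC box and 1 hypoxia core. No deposited measurement bears on binding at these windows.

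Vegfc was lower in both interventions on both scales. Its deposited log2 values were 7.43, 7.50 and 7.24 in FAKWT samples, from 262, 233 and 183 counts. Vehicle samples had 7.21, 7.45 and 7.45, from 198, 195 and 243 counts. Inhibitor samples had 5.23, 5.54 and 5.56, from 33, 41 and 38 counts, and FAKKD samples 6.29, 5.86 and 5.89, from 55, 35 and 46 counts. No sample of the inhibitor or FAKKD groups reached the lowest FAKWT or vehicle sample, whose ranges overlapped each other. In FAKKD against FAKWT the log2 fold change was -1.37 ± 0.16 on the deposited scale (2.59-fold lower; limma adjusted p = 1.76e-05) and -2.43 ± 0.19 relative to the panel (limma adjusted p = 4.64e-07). Under the inhibitor it was -1.93 ± 0.16 against vehicle (3.80-fold lower; limma adjusted p = 3.84e-06) and -2.67 ± 0.19 relative to the panel (limma adjusted p = 4.21e-07). The order of group levels was inhibitor, FAKKD, vehicle, FAKWT; inhibitor and FAKKD samples were apart on the deposited scale and overlapped relative to the panel.

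**Figure D1:**
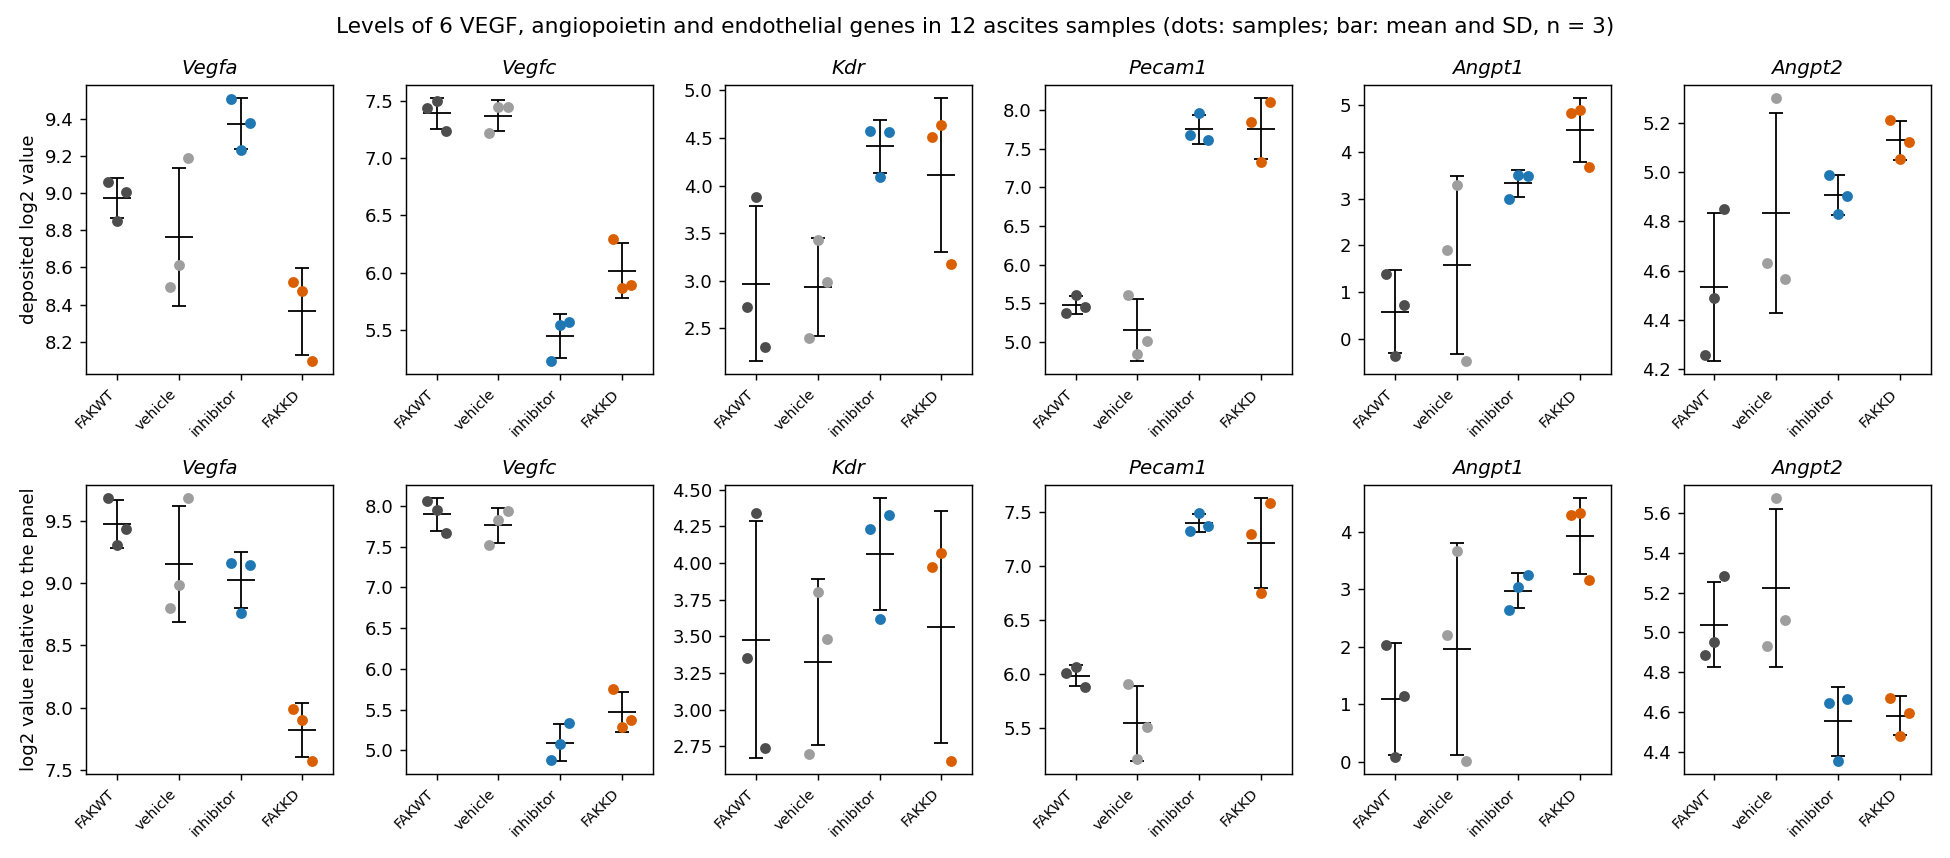
Level of each of the 6 measured genes in all 12 samples, on the deposited log2 scale (upper row) and relative to the panel (lower row), by group; dots are samples, and bars the mean and SD of 3 samples. Vegfc is low in inhibitor and FAKKD samples and Pecam1 is high in both, in each row, while the FAKKD samples of Vegfa stand below the FAKWT samples and the inhibitor samples stand above the vehicle samples in the upper row only.

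Vegfa was lower in FAKKD than in FAKWT samples, and its response to the inhibitor depended on the scale. The deposited values were 9.06, 8.85 and 9.01 in FAKWT samples, from 809, 596 and 623 counts. They were 8.50, 8.61 and 9.19 in vehicle samples (481, 437 and 812 counts) and 9.51, 9.24 and 9.38 in inhibitor samples (643, 530 and 535 counts). FAKKD samples had 8.52, 8.47 and 8.10, from 258, 214 and 212 counts, the lowest 3 Vegfa counts of the 12. FAKKD and FAKWT samples did not overlap on either scale. The log2 fold change between them was -0.61 ± 0.18 (1.53-fold lower; limma adjusted p = 0.00843) and -1.66 ± 0.21 relative to the panel (3.16-fold lower; limma adjusted p = 2.74e-05). Against vehicle instead of untreated samples, the deposited change in FAKKD was -0.40 and no longer passed (limma adjusted p = 0.0582). For inhibitor against vehicle, Vegfa gave 0.61 ± 0.18 on the deposited scale (adjusted p = 0.0106, limma), with the lowest inhibitor sample just above the highest vehicle sample. Against untreated FAKWT samples the deposited inhibitor value was 0.40 and did not pass (limma adjusted p = 0.0635). On the scale relative to the panel the change against vehicle was -0.13 ± 0.21 (limma adjusted p = 0.645) and the groups overlapped, so no direction under the inhibitor held across both scales.

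The change of Vegfa differed between the interventions. FAKKD minus FAKWT was lower than inhibitor minus vehicle by a log2 difference of -1.22 ± 0.25 on the deposited scale (limma adjusted p = 0.00588) and -1.53 ± 0.30 relative to the panel (limma adjusted p = 0.00389). Vegfa was the only one of the 6 genes whose difference passed, among 23.9% of all genes on the deposited scale and 26.0% relative to the panel. For Vegfc the difference was 0.55 ± 0.23 (limma adjusted p = 0.103) and 0.24 ± 0.27 relative to the panel (limma adjusted p = 0.565), so a difference between the interventions was not shown. These interventions have separate control groups.

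A difference between genes within a sample does not depend on the sample's factor, and the pairs given here were picked after their values were seen. Vegfa minus Vegfc was 1.58 ± 0.21 in FAKWT samples, 1.40 ± 0.30 in the vehicle group, 3.93 ± 0.31 in the inhibitor group and 2.35 ± 0.23 in FAKKD samples (log2, SD, n = 3 samples). It was therefore higher by 0.77 in FAKKD than in FAKWT and by 2.54 in inhibitor than in vehicle samples, without overlap in either comparison; the exact two-sided permutation p was 0.1, the smallest that 3 against 3 samples can give. Epcam, the epithelial adhesion molecule, is 1 of the 7 measured epithelial and tumour markers. Vegfc minus Epcam was -0.09 ± 0.11 in FAKWT and 0.24 ± 0.40 in FAKKD samples (exact permutation p = 0.3). It was 0.38 ± 0.19 in vehicle and -0.28 ± 0.05 in inhibitor samples (exact permutation p = 0.1). The level of this difference depends on the 2 probes. Epcam was also among the 3 profiles nearest to Vegfc over these samples. A small change in their difference therefore follows in part from that choice. Vegfa minus Epcam averaged 1.50 in FAKWT and 2.59 in FAKKD samples, and 1.78 with vehicle and 3.65 with inhibitor (exact permutation p = 0.1 in both). Epcam itself changed by -1.70 ± 0.16 in FAKKD (limma adjusted p = 3.23e-06) and by -1.27 ± 0.16 under the inhibitor (adjusted p = 4.95e-05, limma). The other markers of the list did not all move with Epcam: in FAKKD 1 of 7 was higher and 6 lower on the deposited scale, and 0 and 6 relative to the panel, and under the inhibitor 2 and 4, and 0 and 5. Over all genes, 65.1% were higher and 9.47% lower in FAKKD on the deposited scale, and 23.6% and 34.5% relative to the panel. Under the inhibitor these shares were 49.2% and 10.5%, and 17.7% and 28.8%. Msln, the mesothelin of mesothelial and ovarian tumour cells, gave -1.06 ± 0.10 in FAKKD (limma adjusted p = 2.37e-06) and 0.85 ± 0.10 under the inhibitor on the deposited scale (limma adjusted p = 2.22e-05), the latter 0.11 ± 0.10 relative to the panel (limma adjusted p = 0.398). Cdh1, the E-cadherin gene, gave 0.82 ± 0.28 under the inhibitor on the deposited scale (limma adjusted p = 0.0257) and 0.08 ± 0.27 relative to the panel, and Itga6, an integrin chain, gave 0.95 ± 0.13 in FAKKD on the deposited scale (limma adjusted p = 5.63e-05) and -0.10 ± 0.13 relative to the panel. Set against Msln instead of Epcam, Vegfc was at -4.64 ± 0.13 in FAKWT and -4.95 ± 0.24 in FAKKD samples (exact permutation p = 0.2), and at -4.62 ± 0.31 with vehicle and -7.39 ± 0.24 with inhibitor (exact permutation p = 0.1). The part of tumour cell content in the Vegfc and Vegfa levels was not tested.

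**Figure D2:**
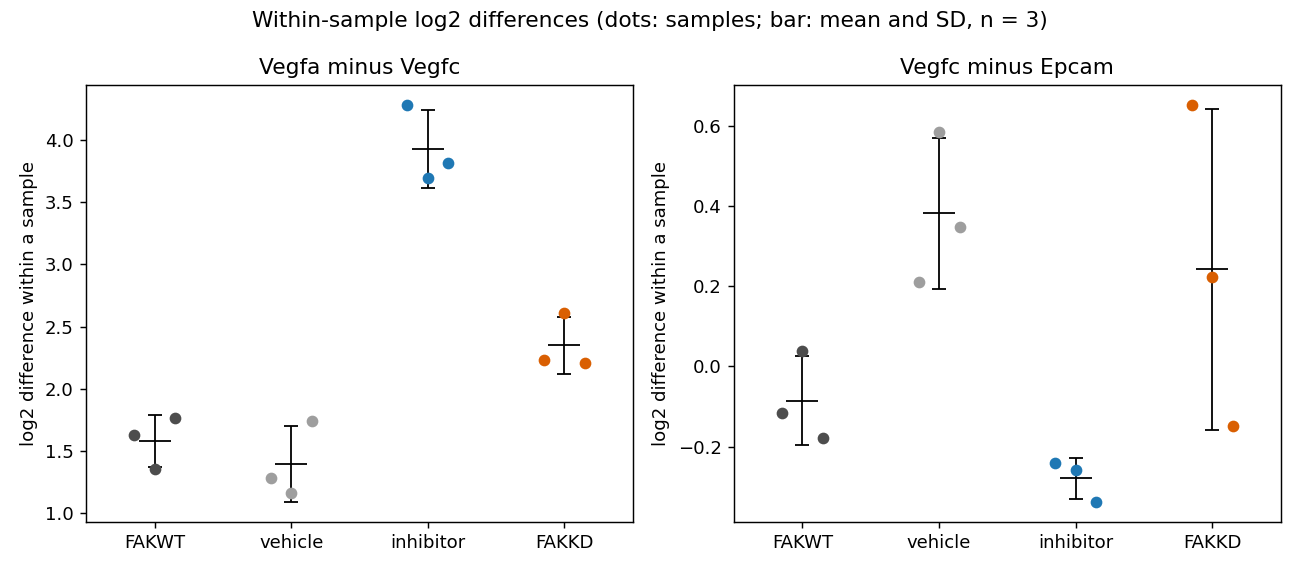
Differences between genes within each sample (log2), Vegfa minus Vegfc on the left and Vegfc minus Epcam on the right, by group; dots are samples, bars the mean and SD of 3 samples. All inhibitor samples exceed 3.6 for Vegfa minus Vegfc, and Vegfc minus Epcam lies within 1 log2 unit of 0 in all 12 samples.

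Kdr, the main signalling receptor for VEGF-A, was read from few counts, and its changes were not stable. FAKWT samples had 10, 19 and 6 counts, vehicle samples 7, 12 and 11, inhibitor samples 21, 15 and 19, and FAKKD samples 16, 15 and 7. On the deposited scale these were 2.72, 3.88 and 2.31 in FAKWT samples, 2.39, 3.43 and 2.98 in the vehicle group, 4.57, 4.09 and 4.56 in the inhibitor group and 4.51, 4.64 and 3.17 in FAKKD samples. Inhibitor samples lay above all vehicle samples, and FAKKD samples overlapped those of FAKWT. The deposited log2 fold change was 1.48 ± 0.48 for inhibitor against vehicle (limma adjusted p = 0.0204) and 1.14 ± 0.48 for FAKKD against FAKWT (adjusted p = 0.0511, limma). Relative to the panel they were 0.74 ± 0.49 (limma adjusted p = 0.248) and 0.09 ± 0.49 (adjusted p = 0.903, limma). As a share of all counts, summed over each group, Kdr in the inhibitor group was 1.79 times that of the vehicle group (exact 95% interval 1.13 to 2.89, counting error only). For FAKKD over FAKWT the ratio was 1.04 (0.638 to 1.69). Without FAKWT_FAKi replicate 4, FAKWT_FAKi replicate 6 or FAKWT_VEH replicate 3, the deposited inhibitor change of Kdr no longer passed (limma adjusted p = 0.0595, 0.0585 and 0.0785); without FAKWT replicate 2 or FAKKD replicate 5, the FAKKD change did (0.0115 and 0.00927).

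The other measured receptors and co-receptors were Nrp1, Tek and Tie1, that is 3 of the 10 genes of a VEGF and angiopoietin family list. In each intervention 2 of 3 were lower and 0 higher relative to the panel, where 34.5% of all genes were lower in FAKKD and 28.8% under the inhibitor; on the deposited scale, 1 was higher and 1 lower in FAKKD and 0 changed under the inhibitor. Tek, the angiopoietin receptor, gave -1.80 ± 0.15 in FAKKD relative to the panel (limma adjusted p = 6.31e-07) and -0.75 ± 0.12 on the deposited scale (limma adjusted p = 0.00014). Under the inhibitor it gave -0.91 ± 0.15 relative to the panel (limma adjusted p = 0.000283) and -0.17 ± 0.12 on the deposited scale (limma adjusted p = 0.214). Its counts were 3440, 2889 and 2927 in FAKWT samples, 2478, 2074 and 2912 in the vehicle group, 1371, 1530 and 1494 in the inhibitor group and 881, 753 and 1286 in FAKKD samples. Nrp1, the neuropilin 1 co-receptor, changed sign with the scale in FAKKD: 0.41 ± 0.12 deposited (limma adjusted p = 0.0112) and -0.64 ± 0.13 relative to the panel (limma adjusted p = 0.0011). Under the inhibitor Nrp1 was at 0.01 ± 0.12 (limma adjusted p = 0.972) and -0.74 ± 0.13 (adjusted p = 0.00058, limma). Tie1, with 3 to 11 counts per sample, did not pass in either comparison on either scale. Tek is also known from a class of monocytes and macrophages.

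Angpt1, the activating TEK ligand, was higher in FAKKD than in FAKWT samples, at the lowest counts of the 6 genes. FAKWT samples had 4, 1 and 2 counts and vehicle samples 5, 11 and 1. Inhibitor samples had 7, 10 and 9 and FAKKD samples 20, 18 and 10. Every FAKKD sample lay above every FAKWT sample, whereas a single vehicle sample, replicate 4, exceeded all 3 inhibitor samples in counts. The deposited values were 1.40, -0.37 and 0.72 in FAKWT samples, 1.91, 3.30 and -0.48 in the vehicle group, 2.99, 3.51 and 3.49 in the inhibitor group and 4.83, 4.90 and 3.69 in FAKKD samples. The FAKKD change was 3.89 ± 0.80 (limma adjusted p = 0.00107) and 2.84 ± 0.78 relative to the panel (limma adjusted p = 0.00774). Against vehicle samples and relative to the panel it was 1.96 (limma adjusted p = 0.0533), an alternative added after the data were seen. Summed over the groups, 48 counts in FAKKD against 7 in FAKWT samples gave a ratio of shares of 6.55 (exact 95% interval 2.95 to 17.2, counting error only). The inhibitor change of Angpt1 was 1.75 ± 0.80 (limma adjusted p = 0.0818) and 1.01 ± 0.78 relative to the panel (limma adjusted p = 0.317), with a ratio of shares of 1.49 (0.780 to 2.93). Without vehicle replicate 4 the deposited change was 2.61 and passed (limma adjusted p = 0.0107). The difference between the interventions, 2.14 ± 1.14 on the deposited scale (limma adjusted p = 0.19), was 3.17 and passed without vehicle replicate 9 (limma adjusted p = 0.0172).

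Angpt2, the context-dependent antagonist, varied least among the 6 genes. Counts were 29, 29 and 35 in FAKWT samples, 33, 44 and 33 in the vehicle group, 28, 25 and 24 in the inhibitor group and 26, 20 and 27 in FAKKD samples. On the deposited scale FAKWT samples had 4.26, 4.49 and 4.85, vehicle samples 4.63, 5.30 and 4.57, inhibitor samples 4.99, 4.83 and 4.90 and FAKKD samples 5.21, 5.06 and 5.12. By counts the intervention samples were the lower ones, and by deposited values FAKKD samples were the highest of the comparison. The FAKKD change was 0.60 ± 0.23 on the deposited scale (limma adjusted p = 0.0369) and -0.46 ± 0.23 relative to the panel (limma adjusted p = 0.108). The deposited call was lost when FAKWT replicate 1 or 2 or any 1 of the FAKKD replicates was left out, with limma adjusted p from 0.0578 to 0.129. It was also lost against vehicle samples (0.30, limma adjusted p = 0.273) and with only the compared groups (limma adjusted p = 0.0521). Against untreated and vehicle samples together the change was 0.45 and did not pass (limma adjusted p = 0.066). The inhibitor change was 0.07 ± 0.23 (limma adjusted p = 0.805) and -0.67 ± 0.23 relative to the panel (limma adjusted p = 0.0308). This call was lost without inhibitor replicate 4 or 5 or vehicle replicate 4 (highest limma adjusted p 0.134). The ratio of shares was 0.750 (exact 95% interval 0.544 to 1.03) for FAKKD and 0.683 (0.504 to 0.922) for the inhibitor, counting error only.

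**Figure D3:**
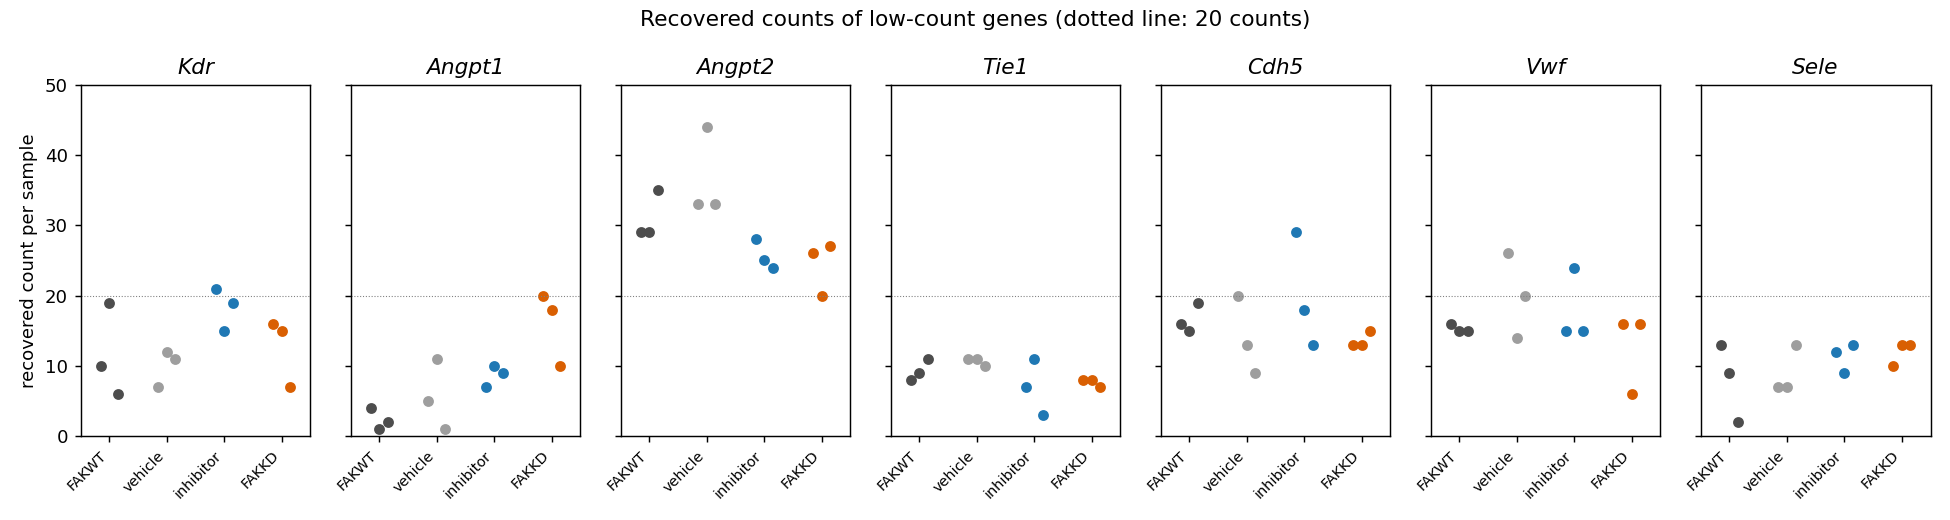
Recovered counts per sample of Kdr, Angpt1, Angpt2 and 4 endothelial genes, Tie1, Cdh5, Vwf and Sele, by group (dots are samples, dotted line at 20 counts). The Angpt1 counts of 20 and 18 in FAKKD samples are its highest, Angpt2 lies between 20 and 44 counts throughout, and the endothelial genes stay below 30.

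Pecam1 was higher in both interventions on both scales. FAKWT samples had deposited values of 5.38, 5.61 and 5.45 (63, 63 and 53 counts) and vehicle samples 5.61, 4.84 and 5.02 (65, 32 and 45 counts). Inhibitor samples had 7.67, 7.97 and 7.61, from 180, 220 and 157 counts, and FAKKD samples 7.84, 7.33 and 8.11, from 161, 97 and 214 counts. All inhibitor and FAKKD samples exceeded all FAKWT and vehicle samples, and these intervention groups overlapped each other, as did the controls. FAKKD minus FAKWT was 2.28 ± 0.23 (4.86-fold higher; limma adjusted p = 5.87e-06) and 1.23 ± 0.22 relative to the panel (2.35-fold higher; limma adjusted p = 3.67e-04). Inhibitor minus vehicle was 2.60 ± 0.23 (6.05-fold higher; limma adjusted p = 5.11e-06) and 1.85 ± 0.22 relative to the panel (3.62-fold higher; limma adjusted p = 2.39e-05). The difference between the interventions was -0.31 ± 0.33 (limma adjusted p = 0.53) and -0.62 ± 0.31 relative to the panel (limma adjusted p = 0.166).

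Some but not all lists of leukocyte markers moved with Pecam1. The 9 of 9 measured B cell markers took 0.134% to 0.199% of counts in FAKWT samples, 0.140% to 0.215% in the vehicle group, 0.502% to 0.628% in the inhibitor group and 0.280% to 0.638% in FAKKD samples. The 11 of 12 measured T cell markers took 0.0298% to 0.0408%, 0.0285% to 0.0436%, 0.0531% to 0.0637% and 0.0561% to 0.0742% in these groups. Mast cell markers, 5 of 9 measured, took 0.138% to 0.455%, 0.0410% to 0.181%, 0.400% to 0.565% and 0.518% to 1.21%. Neutrophil markers, 8 of 11 measured, spread widely and overlapped, at 0.184% to 0.582% in FAKWT, 0.226% to 1.05% in vehicle, 0.123% to 1.17% in inhibitor and 0.168% to 0.631% in FAKKD samples, and 1 was higher and 2 lower in each comparison relative to the panel. Of the 18 macrophage and monocyte markers, 10 were higher and 2 lower in FAKKD and 7 higher and 6 lower under the inhibitor on that scale. Over all genes on that scale, 23.6% were higher and 34.5% lower in FAKKD, and 17.7% and 28.8% under the inhibitor. The 3 of 8 measured platelet markers took 0.141% to 0.145%, 0.0998% to 0.119%, 0.0450% to 0.0520% and 0.0283% to 0.0467% of counts in FAKWT, vehicle, inhibitor and FAKKD samples, most of it from the integrin chain Itgb3. In both comparisons Itgb3 was lower, Itga2b, the platelet integrin chain, was higher and Ppbp, a platelet chemokine, did not pass, on either scale; Itga2b had 28, 27 and 39 counts in FAKWT and 50, 48 and 68 in FAKKD samples. No gene of these lists was at 0, as was the case for all 750 genes. Pecam1 minus Csf1r, the macrophage growth factor receptor, was -4.39 ± 0.14 in FAKWT and -4.31 ± 0.39 in FAKKD samples (exact permutation p = 0.9), and -4.92 ± 0.30 in vehicle and -4.19 ± 0.17 in inhibitor samples (exact permutation p = 0.1; log2, SD, n = 3 samples). The part of these cells in the Pecam1 level was not tested.

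In all, 3 of the 6 genes were higher (Pecam1, Angpt1 and Angpt2) and 2 lower (Vegfa and Vegfc) in FAKKD than in FAKWT samples on the deposited scale, where 65.1% of all genes were called higher and 9.47% lower. Relative to the panel, Pecam1 and Angpt1 were higher and Vegfa and Vegfc lower, against 23.6% and 34.5% of all genes. For inhibitor against vehicle, Vegfa, Kdr and Pecam1 were higher and Vegfc lower on the deposited scale, against 49.2% and 10.5% of all genes. Pecam1 was higher and Vegfc and Angpt2 lower relative to the panel, against 17.7% and 28.8%. The median log2 fold change of the 6 genes was 0.87 for FAKKD and 1.04 for the inhibitor on the deposited scale, beside 0.95 and 0.54 over all genes. Calls were thus common on this panel, and the counts of the 6 genes are a description. None of the 6 passed between vehicle and untreated FAKWT samples, where limma called 0.0% of genes on the deposited scale and 0.0% relative to the panel (93 and 99 genes at an unadjusted p under 0.05). The deposited vehicle changes were -0.21 for Vegfa, -0.02 for Vegfc, -0.04 for Kdr, -0.32 for Pecam1, 0.99 for Angpt1 and 0.30 for Angpt2.

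**Figure D4:**
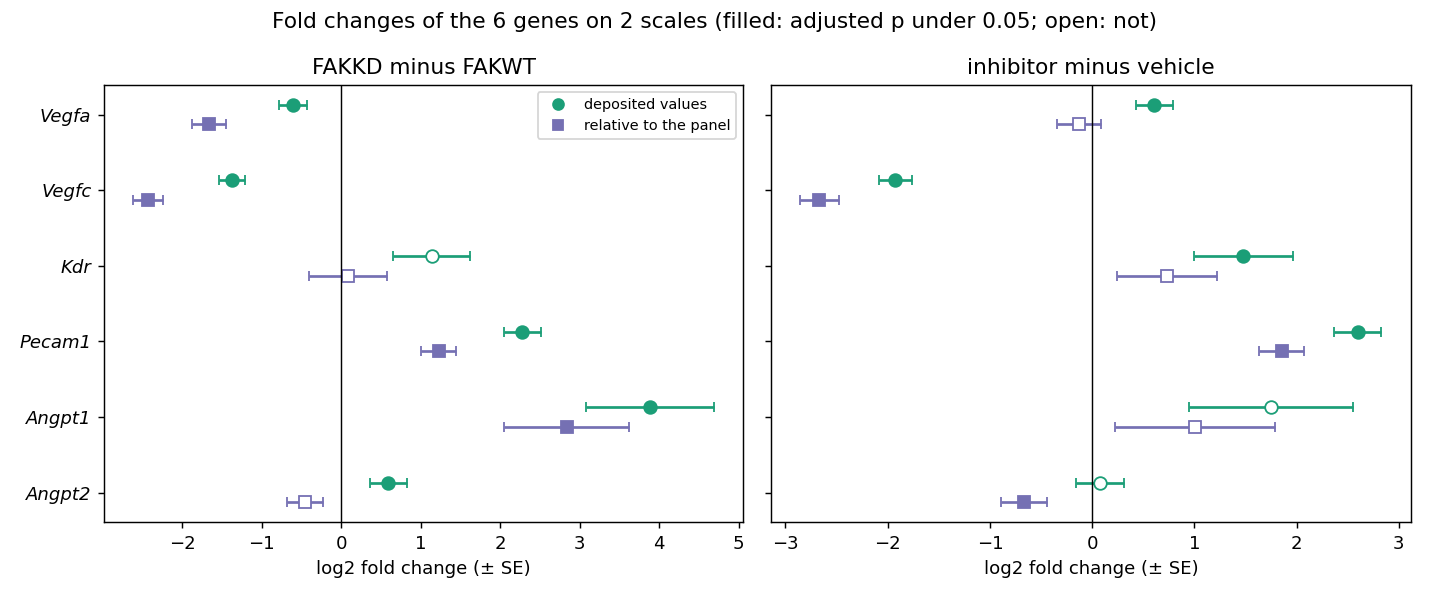
Log2 fold changes with standard errors of the 6 genes for FAKKD minus FAKWT (left) and inhibitor minus vehicle (right), on the deposited scale (circles) and relative to the panel (squares); filled symbols have a limma adjusted p under 0.05. Vegfc and Pecam1 have filled symbols on 1 side of 0 in all 4 fits, whereas Angpt2 in FAKKD and Vegfa under the inhibitor lie on both sides.

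Of 12 other measured endothelial genes, a list that holds Tek and Tie1 again, 5 were higher and 1 (Tek) lower in FAKKD than in FAKWT samples relative to the panel, with a median of 0.49; on the deposited scale it was 8 and 1. Among all genes 23.6% were higher and 34.5% lower relative to the panel, and 65.1% and 9.47% on the deposited scale. Those higher on both scales were Cd34, a sialomucin of endothelium and progenitors, Eng, a co-receptor for TGF-beta ligands, Icam2, an adhesion molecule of endothelium and leukocytes, Thbd, the thrombin receptor thrombomodulin, and Tal1, a haematopoietic and endothelial transcription factor. Thbd gave 1.18 ± 0.20 relative to the panel (limma adjusted p = 0.000233), from 148, 171 and 102 counts in FAKWT and 382, 257 and 375 in FAKKD samples. Cd34 gave 1.18 ± 0.32 (limma adjusted p = 0.00716) and Tal1 0.84 ± 0.28 (adjusted p = 0.0226, limma). Smaller shifts relative to the panel were those of Eng, 0.50 ± 0.17 (limma adjusted p = 0.0204), and Icam2, 0.63 ± 0.21 (adjusted p = 0.0225, limma). Mcam, Lyve1 and Sele, coding for the adhesion molecule CD146, a hyaluronan receptor of lymphatic endothelium and some macrophages, and E-selectin, were called higher on the deposited scale alone.

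Under the inhibitor, 3 of these 12 genes were higher and 1 (Tek) lower relative to the panel, and 7 higher and 0 lower on the deposited scale. The shares over all genes were 17.7% and 28.8%, and 49.2% and 10.5%. Lyve1 gave 1.77 ± 0.38 relative to the panel (limma adjusted p = 0.00188), from 435, 166 and 408 counts in vehicle and 1250, 1215 and 1083 in inhibitor samples, without overlap. Cd34 gave 1.24 ± 0.32 (limma adjusted p = 0.00692) and Tal1 0.88 ± 0.28 (adjusted p = 0.0231, limma). Cdh5 passed on the deposited scale alone, 1.09 ± 0.35 (limma adjusted p = 0.0185), and gave 0.35 ± 0.32 relative to the panel (limma adjusted p = 0.405). Eng, Mcam and Thbd also passed on the deposited scale alone. Thbd changed more in FAKKD than under the inhibitor, by 0.94 ± 0.28 relative to the panel (limma adjusted p = 0.0267). Tek changed more in the downward direction there, by -0.88 ± 0.21 (adjusted p = 0.00926, limma). Vwf and Tie1 passed in neither comparison on either scale, and Icam2 and Sele did not pass under the inhibitor on either.

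**Figure D5:**
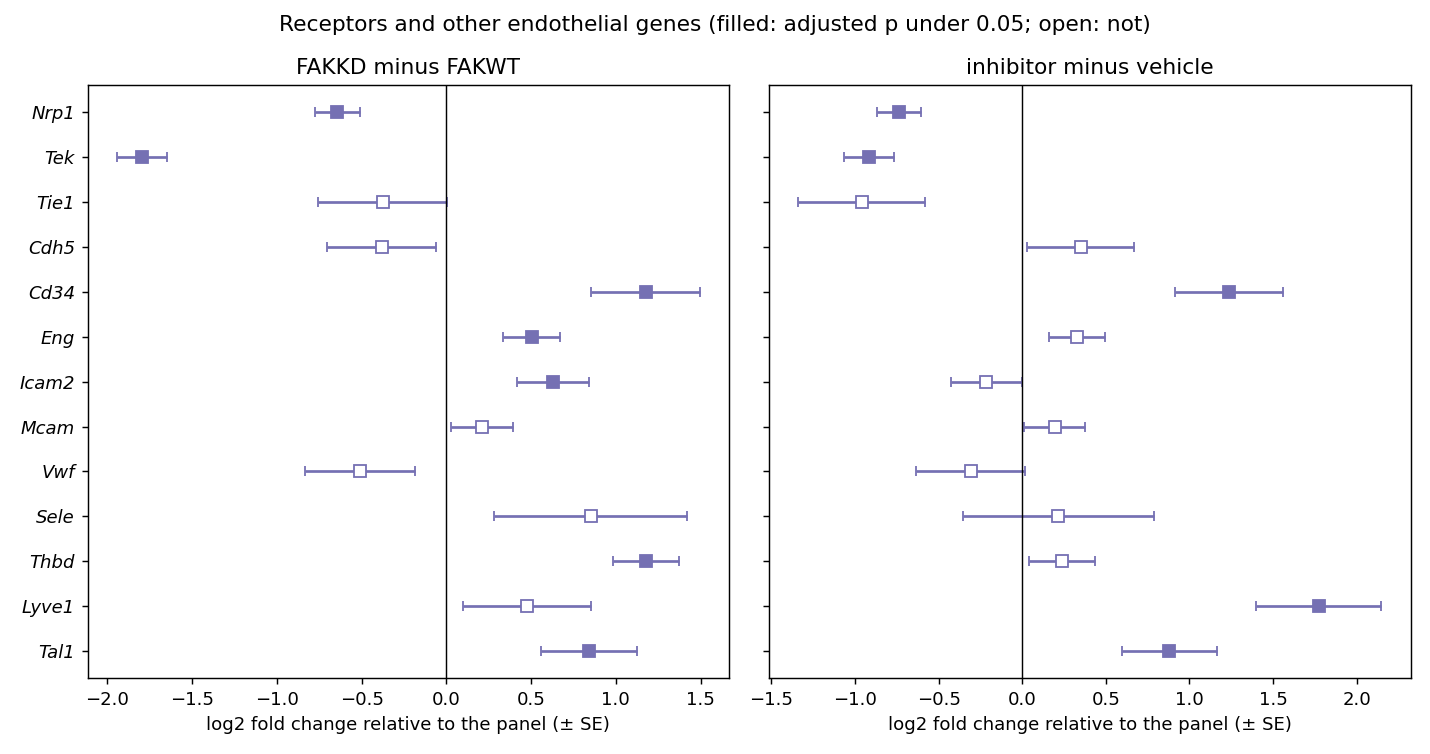
Log2 fold changes relative to the panel, with standard errors, of the receptors Nrp1, Tek and Tie1 and 10 further endothelial genes for FAKKD minus FAKWT (left) and inhibitor minus vehicle (right); filled symbols have a limma adjusted p under 0.05. Nrp1 and Tek lie below 0 and Cd34 and Tal1 above 0 with filled symbols in both comparisons.

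Of 18 measured angiogenic and hypoxia regulators, 2 were higher and 12 lower in FAKKD than in FAKWT samples relative to the panel (median -0.87), and 8 and 7 on the deposited scale. Under the inhibitor 3 were higher and 9 lower relative to the panel, and 8 and 8 on the deposited scale. The panel-relative shares over all genes were 23.6% higher and 34.5% lower in FAKKD and 17.7% and 28.8% under the inhibitor; on the deposited scale these were 65.1% and 9.47%, and 49.2% and 10.5%. Ptgs2, the inducible cyclooxygenase that makes prostaglandins, gave -4.53 ± 0.33 in FAKKD relative to the panel (limma adjusted p = 2.64e-07). Plau, the urokinase protease, gave -2.50 ± 0.17 under the inhibitor on the same scale (limma adjusted p = 3.19e-07). Tgfb2, a growth factor, was higher in both, by 0.54 ± 0.12 (adjusted p = 0.00179, limma) and 1.01 ± 0.12 (limma adjusted p = 2.42e-05). Txnip, which binds thioredoxin, gave 0.21 ± 0.10 in FAKKD (adjusted p = 0.103, limma) and 0.89 ± 0.10 under the inhibitor (limma adjusted p = 2.27e-05). Hif1a, the hypoxia-inducible factor that acts on VEGFA, was named after its values were seen; it was lower in both on both scales, with log2 fold changes of -0.53 ± 0.08 and -0.22 ± 0.08 deposited (limma adjusted p = 7.31e-05 and 0.0268) and -1.58 ± 0.12 and -0.96 ± 0.12 relative to the panel.

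Of 15 measured genes of leukocyte adhesion to endothelium, 3 were higher and 7 lower in FAKKD relative to the panel (median -0.44), and 11 and 1 on the deposited scale; under the inhibitor the counts were 2 and 6, and 8 and 1. The shares of all genes were 23.6% and 34.5%, and 65.1% and 9.47%, in FAKKD, and 17.7% and 28.8%, and 49.2% and 10.5%, under the inhibitor. Itga4, the alpha chain of the VCAM1-binding integrin VLA-4, gave 1.53 ± 0.13 in FAKKD (limma adjusted p = 6.42e-07) and 0.52 ± 0.13 under the inhibitor (adjusted p = 0.005, limma) relative to the panel. Selplg, the selectin ligand PSGL-1 of leukocytes, gave 0.71 ± 0.13 in FAKKD (adjusted p = 0.000534, limma). Itgb2, the common chain of leukocyte integrins, gave 1.26 ± 0.13 in FAKKD on the deposited scale (limma adjusted p = 7.96e-06) and 0.20 ± 0.13 relative to the panel (limma adjusted p = 0.217). Alcam and Itgb1, adhesion molecules of many cell types, were higher under the inhibitor on the deposited scale, by 0.65 ± 0.11 (limma adjusted p = 0.000286) and 0.41 ± 0.07 (adjusted p = 0.000407, limma), and gave -0.09 ± 0.13 and -0.33 ± 0.12 relative to the panel. Icam1 of the same list, named after its values were seen, was lower in both comparisons without overlap on either scale. Its counts were 1558, 1213 and 1151 in FAKWT and 356, 351 and 340 in FAKKD samples. Vehicle samples had 1187, 1070 and 1281 counts and inhibitor samples 645, 594 and 637.

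For each of the 4 genes with a mean of at least 20 counts, the 3 most similar profiles over the 12 samples were found among 601 genes, by the root-mean-square distance of mean-centred values relative to the panel. Nearest to Vegfa were Dock9, an exchange factor for CDC42, Mapk3, the kinase ERK1, and Cxcl16, a chemokine, at distances of 0.19, 0.21 and 0.24, where the median gene was at 0.79. Nearest to Vegfc were the cytokine Lif at 0.23, the interferon-induced Oasl1 at 0.27 and Epcam at 0.32, with a median of 1.25. Lif gave -2.20 and Oasl1 -2.15 in FAKKD, and -2.73 and -2.20 under the inhibitor, relative to the panel. Nearest to Pecam1 were Pou2f2, a transcription factor of B cells, Gpr183, a receptor that guides lymphocytes, and Ly9, a lymphocyte surface receptor, at 0.24, 0.25 and 0.28 with a median of 0.98. Nearest to Angpt2 were the autophagy gene Atg5, the RNA sensor Tlr3 and the TNF receptor Tnfrsf1b at 0.20, 0.21 and 0.22, with a median of 0.52. These distances are descriptions over samples that share their groups.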

How the data were processed

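RNA of 12 ascites samples was measured on a NanoString panel, named in the design text as 770 genes; the table holds 750. Per the file headers and values, the authors deposited normalized log2 values, and how background and normalization were handled is not given in the sources used here. All 12 columns matched a sample by title. Counts were recovered from the deposited log2 values as whole multiples of 1 factor per sample (tolerance 0.01), and 148 genes had a mean under 20. The lowest recovered count was 1, and whether lower counts were raised to 1 is not stated. Replicate pairs differed by more than sampling noise (8.35 to 59.6 for chi-square over its degrees of freedom), so they were kept as separate samples in the limma fits.

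Tests used limma 3.58.1 in R 4.3.3: 4 group means over 12 samples, eBayes with trend, two-sided, Benjamini-Hochberg adjustment over 750 genes at 0.05, with no filter and no pseudocount. The fit was checked on simulated data. Exact permutation tests ran over all 20 regroupings of 3 against 3 samples. Exact intervals used scipy 1.17.1. Relative to the panel, each sample was shifted to a common median gene. Intervals of ratios are exact 95% binomial intervals on counts summed over the 3 samples of a group. They leave out the spread between samples and may be too narrow. Promoters, positions and gene names are from RefSeq tables of GRCm38.p6, where 3 of the 6 measured genes (Kdr, Vegfa and Vegfc) had a promoter entry.

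The members and lists were chosen with earlier results of these data known. Named genes were the members, the 3 nearest profiles of each and all measured genes of the receptor and endothelial lists. Of the other lists, up to 3 with the smallest p were named. Hif1a, Icam1, Epcam, Msln, Cdh1, Itga6, the platelet markers and Csf1r were added after values were seen.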

Additional observations from a re-analysis of the deposited data

Results flagged for a closer look

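The 2 interventions had different effects on Vegfa by a test of the difference itself. FAKKD minus FAKWT was lower than inhibitor minus vehicle by -1.22 on the deposited log2 scale (limma adjusted p = 0.00588) and by -1.53 relative to the panel (limma adjusted p = 0.00389). On the deposited scale all 3 FAKKD samples lay below all 3 FAKWT samples and all 3 inhibitor samples lay above all 3 vehicle samples. The lowest inhibitor sample, at 9.24, was just above the highest vehicle sample, at 9.19. Relative to the panel the inhibitor change was -0.13 (limma adjusted p = 0.645) and the inhibitor and vehicle samples overlapped, so a rise under the inhibitor was not shown on that scale. The summed share of the epithelial and tumour markers was 0.820% to 1.04% in FAKKD and 1.34% to 1.39% in inhibitor samples. Most of these counts were Msln and Itga6, which differed in opposite directions. Msln had 1426, 1268 and 1438 counts in FAKKD and 6621, 6704 and 5518 in inhibitor samples. Itga6 had 5375, 4751 and 4247 counts in FAKKD and 2990, 2851 and 2371 in inhibitor samples. The part of these markers in the Vegfa difference was not tested.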

How the results depend on the processing

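Across the 6 genes, 360 of the recomputed values kept their direction and side of the threshold, 19 lost and 11 gained the call, and 20 changed sign. Vegfc and Pecam1 kept theirs in both main comparisons under all 18 alternatives. Angpt2 in FAKKD reversed relative to the panel (-0.46), under quantile normalization (-0.52), under total counts (-0.42) and against vehicle relative to the panel (-0.64), an alternative added after the data were seen. Only this last reversal was called, as lower (limma adjusted p = 0.0337), whereas the reported deposited fit called Angpt2 higher. Vegfa under the inhibitor reversed relative to the panel (-0.13), under total counts (-0.0061) and against untreated samples relative to the panel (-0.45, also added), and Angpt2 under the inhibitor (0.07) relative to the panel (-0.67), under quantile normalization (-0.55), under total counts (-0.54) and against untreated samples relative to the panel (-0.48, added); of these 4, limma called the first alone. Values not called on either side changed sign when single replicates were left out: Angpt2 under the inhibitor ran from -0.058 to 0.31, Vegfc and Kdr in vehicle against untreated samples from -0.094 to 0.0595 and from -0.37 to 0.42, and the Kdr difference between interventions from -0.67 to 0.13. The cause was not tested. Genes called between vehicle and untreated samples, 0 in the reported fit, were 93 at an unadjusted p under 0.05, 1 with only the compared groups, and 0 to 4 when single replicates were left out; for the difference between interventions 179 became 284 at an unadjusted p under 0.05. Relative to the panel, Vegfa, Vegfc, Pecam1 and Angpt1 in FAKKD and Vegfc and Pecam1 under the inhibitor kept their calls in 6 of 6 fits that left out 1 sample. The pseudocount alternative was not run, since the values are on a log scale. No paired analysis was possible because the groups compared share fewer than 2 replicate numbers. Counts of Kdr and Angpt1, under 20 on average, limit what could be detected for them. The call of Angpt1 as higher in FAKKD also rests on FAKWT counts of 4, 1 and 2. A count of 1 was the lowest over all 750 genes, so the size of this change is uncertain.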
